A study of Mus musculus with 6 samples.

Results

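The genes described here make, process and store pulmonary surfactant: *Sftpa1*, *Sftpb*, *Sftpc* and *Sftpd*, which encode the surfactant proteins SP-A, SP-B, SP-C and SP-D, the protease genes *Napsa* and *Ctsh*, the lamellar body genes *Abca3* and *Lamp3*, the lipid enzyme gene *Lpcat1* and the phosphate transporter gene *Slc34a2*. They were chosen by symbol for these roles, 10 of the 24421 genes in the count table, and all 10 passed the expression filter, among 16723 genes that did. The question was how their transcripts compared between mouse alveolar type 2 (AT2) cells with and without constitutively active BMP signaling.

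Poly(A) RNA was sequenced from AT2 cells that had been sorted by flow cytometry on a lineage label, in 2 groups of 3 libraries. AT2 CTRL cells came from mice of genotype Sftpc-CreERT2/+ with 1 R26-tdTomato allele, and AT2 CAB cells from Sftpc-CreERT2/+ mice with R26-tdTomato on 1 copy of the Rosa26 locus and R26-caBmpr1a on the other, which codes for a BMPR1a receptor that signals without ligand. In each group 1 library (AT2 CTRL replicate 2 and AT2 CAB replicate 1) came from mice of 16 weeks and the others from mice of 12 weeks of age. The study used tamoxifen to switch on the label and the active receptor through CreERT2, which is driven from the *Sftpc* locus in both groups, so that every library carried an altered *Sftpc* allele. The label and the active receptor lie on separate alleles, and a sorted cell could have recombined the label alone.

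AT2 cells secrete surfactant, a mixture of phospholipids and proteins that lowers surface tension at the air-liquid interface of the alveolus. The phospholipids and the hydrophobic proteins SP-B and SP-C are packed into lamellar bodies, lysosome-related organelles that fuse with the apical membrane. SP-A and SP-D are hydrophilic collectins, lectins of innate defense that bind microbes and take part in the turnover of surfactant.

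In scaled values (CPM, defined below), the collectin genes and *Lamp3* were lower in every AT2 CAB than in any AT2 CTRL library. The group means differed by factors of 1.44 to 1.65, while *Sftpb* and *Sftpc* overlapped between the groups. In TPM (defined below) the groups of *Lamp3* overlapped. None of the 10 genes passed the test across all genes (edgeR's quasi-likelihood test, Benjamini-Hochberg adjusted p under 0.05), in which 0.012% of the tested genes were called lower and 0.239% higher. At an unadjusted p under 0.05, 3 of the 10 were lower (*Sftpa1*, *Sftpd* and *Lamp3*) and 0 were higher, beside 5.05% and 4.62% of all tested genes. The 3 came down to 1, *Sftpd* alone, when AT2 CTRL replicate 2, AT2 CTRL replicate 3, AT2 CAB replicate 2 or AT2 CAB replicate 3 was left out. All AT2 CAB values in CPM lay below all AT2 CTRL values for 4 of the 10, the same 3 and *Slc34a2*, and above them for 0, beside 10.1% and 7% of all tested genes. Of these 4, *Lamp3* and *Slc34a2* overlapped in TPM, which lacks the adjustment between libraries used for CPM, and *Sftpa1* and *Sftpd* did not. The median log2 fold change (AT2 CAB over AT2 CTRL) was -0.27 over the 10 genes and -0.0096 over all tested genes, with 8 values below 0 and 2 above.

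Upstream sequence is shown for 3 of the genes whose groups did not overlap in CPM (*Sftpa1*, *Lamp3*, *Slc34a2*) and for *Sftpb*, whose groups overlapped. Each is the 250 bases before the annotated start, 5′ to 3′ on the strand of the gene, from RefSeq on GRCm38.p6, whose primary chromosomes are those of mm10: chr14:41131538-41131787 (+), chr16:19706366-19706615 (-), chr5:53049103-53049352 (+) and chr6:72304360-72304609 (+) in the order printed. Of the 10 genes, 6 had an entry in that table. Capitals mark letters searched on both strands: CTCAAG, a core of sites for NKX2-1, TGTTTAC, a core of sites for FOXA factors, and GGCGCC, a GC-rich element that SMADs of the BMP pathway can bind.
Sftpa1: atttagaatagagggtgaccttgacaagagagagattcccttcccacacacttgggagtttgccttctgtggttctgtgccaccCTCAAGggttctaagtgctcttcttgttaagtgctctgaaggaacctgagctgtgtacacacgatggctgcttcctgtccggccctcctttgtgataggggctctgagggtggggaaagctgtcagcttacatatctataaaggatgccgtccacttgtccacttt
Lamp3: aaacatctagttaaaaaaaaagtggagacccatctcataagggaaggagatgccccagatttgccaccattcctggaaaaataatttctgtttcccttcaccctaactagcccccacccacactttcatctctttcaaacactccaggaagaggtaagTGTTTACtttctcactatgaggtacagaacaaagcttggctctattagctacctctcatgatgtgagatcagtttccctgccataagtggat
Slc34a2: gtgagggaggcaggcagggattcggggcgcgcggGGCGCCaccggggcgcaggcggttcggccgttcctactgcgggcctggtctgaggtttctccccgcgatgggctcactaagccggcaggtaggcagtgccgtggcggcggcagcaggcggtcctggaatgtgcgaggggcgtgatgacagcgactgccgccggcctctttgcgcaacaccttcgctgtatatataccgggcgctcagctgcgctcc
Sftpb: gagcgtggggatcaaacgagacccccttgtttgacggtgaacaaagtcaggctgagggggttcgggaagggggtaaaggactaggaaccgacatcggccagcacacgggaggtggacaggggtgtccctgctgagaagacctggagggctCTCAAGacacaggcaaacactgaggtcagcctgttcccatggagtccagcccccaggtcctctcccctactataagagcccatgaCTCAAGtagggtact
*Sftpa1* held CTCAAG once, with its first base 166 bases before the start, and *Sftpb* held it at 100 and 15 bases. *Lamp3* held TGTTTAC at 92 bases and *Slc34a2* held GGCGCC at 216 bases. No match overlapped another, and the windows of *Abca3* and *Lpcat1* held none of these letters. Among 32851 windows of the same length, 13.3% held CTCAAG, 3.17% TGTTTAC and 9.59% GGCGCC.

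Levels are given in CPM, for which counts are divided by the library's total and brought to one scale, with totals adjusted by TMM, a method that equalizes the bulk of genes between libraries. Library totals ranged from 21554249 to 28440227 counts, and at these depths 3 counts, the limit set for detection, corresponded to 0.105 to 0.139 CPM, which covers counting error only. AT2 CTRL replicate 1 and AT2 CAB replicate 3 carried reads on 4 Y-linked genes (172 and 158 CPM, against 0 in the other 4 libraries). On the first principal component they lay at 36.7 and 73.5, and the other 4 were spread from -55.7 to -0.50. Values are therefore also given within the 4 remaining libraries and within this pair. The caBmpr1a allele was checked by its targets: all 7 BMP target genes listed were higher in every AT2 CAB library and 5 were called higher, beside 7% and 0.239% of all tested genes, with log2 fold changes of 3.61 for *Id1*, 4.58 for *Id3*, 3.37 for *Smad9*, 4.10 for *Atoh8* and 1.27 for *Smad6*. *Bmpr1a* itself averaged 120.0 CPM in AT2 CTRL and 118.8 CPM in AT2 CAB cells. Counts do not tell fewer AT2 cells in a sort from less surfactant RNA per cell, which cannot be told apart in bulk RNA.

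**Figure D1:**
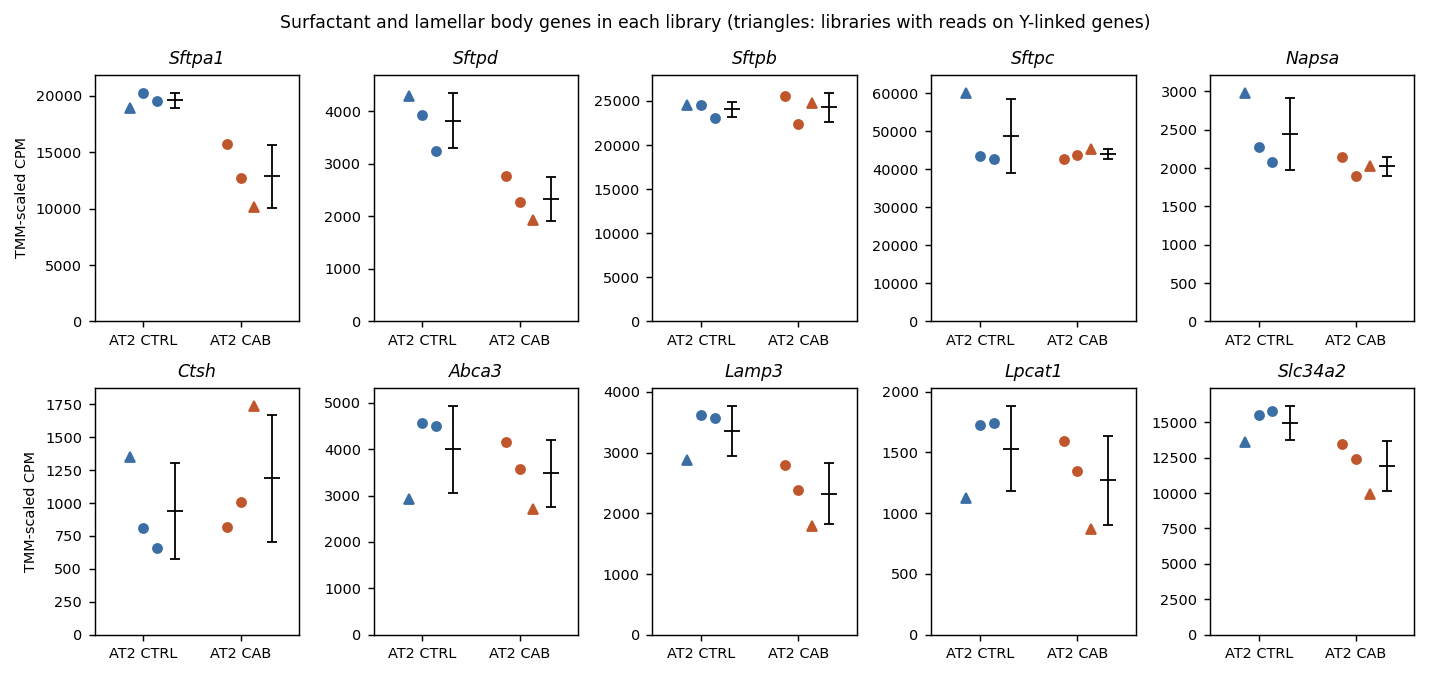
TMM-scaled CPM of each gene in the 3 AT2 CTRL (blue) and 3 AT2 CAB (orange) libraries, with each group's mean and SD as a bar beside the points. Triangles mark the libraries with reads on Y-linked genes. *Sftpa1*, *Sftpd*, *Lamp3* and *Slc34a2* have no overlap between groups, and *Sftpb* lies between 22424 and 25607 CPM in all 6 libraries.

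In TPM, which divides counts by exon length before scaling to a common total and so allows genes to be compared, *Sftpc* was the most abundant of all genes in both groups, at 126327 ± 17539 TPM in AT2 CTRL and 128889 ± 6634 TPM in AT2 CAB cells (SD, n = 3 each). Among the 10 genes, *Sftpb* came next at 32223 TPM in AT2 CTRL cells, where it ranked 3 among all genes. Then came *Sftpa1* at 14818, *Slc34a2* at 7531, *Sftpd* at 6023 and *Napsa* at 3445 TPM. After these came *Lamp3* at 2112, *Lpcat1* at 2018, *Abca3* at 1304 and *Ctsh* at 1199 TPM. In AT2 CTRL libraries the neighbors in this order overlapped for *Slc34a2* and *Sftpd* and from *Lamp3* down to *Ctsh*, and the other neighbors were apart. In AT2 CAB libraries *Ctsh* averaged 1728 TPM, above *Lamp3* at 1631 and *Abca3* at 1259 TPM, with values that overlapped theirs. The 10 genes took 10.8% to 12.9% of all counts and 18.5% to 21.3% of all TPM in a library, and the AT2 CAB libraries, at 10.8% to 11.3% of counts and 19.5% to 20.1% of TPM, lay within or close to the range of the AT2 CTRL libraries. In TMM-scaled CPM their sum did not overlap between groups, at 116886 to 132802 in AT2 CTRL and 101420 to 111870 in AT2 CAB libraries. The sum over all tested genes did not overlap either, at 1026000 to 1062460 in AT2 CTRL and 923956 to 987416 in AT2 CAB libraries. TMM raised the total used for scaling in every AT2 CAB library and lowered it in every AT2 CTRL library. The separation of the summed CPM was therefore not particular to the 10 genes.

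SP-A and SP-D are the collectins of surfactant. *Sftpa1*, the mouse gene for SP-A (chr14:41131788-41136373), had 18968, 20271 and 19534 CPM in AT2 CTRL replicates 1, 2 and 3 and 15717, 12702 and 10148 CPM in AT2 CAB replicates 1, 2 and 3. The AT2 CTRL libraries lay close together and the AT2 CAB libraries were all lower and more spread out, with replicate 3 the lowest. The AT2 CTRL mean of 19591 ± 653 CPM was 1.52 times the AT2 CAB mean of 12856 ± 2788 CPM (SD, n = 3 each). The log2 fold change was -0.61, with a standard error of 0.21, a 95% interval of -1.09 to -0.13 and edgeR's adjusted p at 0.416. *Sftpd*, for SP-D, had 4287, 3936 and 3249 CPM in AT2 CTRL and 2760, 2282 and 1930 CPM in AT2 CAB replicates 1, 2 and 3. The groups again did not overlap, and the largest AT2 CAB value lay below the smallest AT2 CTRL value of 3249 CPM. The AT2 CTRL mean of 3824 ± 528 CPM was 1.65 times the AT2 CAB mean of 2324 ± 417 CPM, a log2 fold change of -0.72 with a standard error of 0.19 and a 95% interval of -1.15 to -0.28 (adjusted p = 0.279 in edgeR's test).

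*Sftpd* was the one gene of the 10 whose call depended on the tool. DESeq2 gave it a log2 fold change of -0.70 with an adjusted p of 0.0112, where 0.498% of the genes given an adjusted p were called lower, and gave *Sftpa1* an adjusted p of 0.0731. Within the 4 libraries that lacked Y-linked reads, the log2 ratios of group means were -0.49 for *Sftpa1* and -0.51 for *Sftpd*. Between the pair with such reads they were larger, -0.90 for *Sftpa1* and -1.15 for *Sftpd*, and with 1 library a group this pair allows no test.

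SP-B and SP-C are the hydrophobic proteins, small peptides cut from longer precursors on the way to the lamellar body. *Sftpb* (chr6:72304610-72314373) had 24573, 24501 and 23087 CPM in AT2 CTRL and 25607, 22424 and 24781 CPM in AT2 CAB replicates 1, 2 and 3. All 6 libraries fell within a narrow band, and AT2 CAB cells held both the highest and the lowest value. The log2 fold change was 0.01 with a 95% interval of -0.40 to 0.42 (adjusted p = 0.988 in edgeR's test), so a difference of the size seen for *Sftpd* lies outside this interval. *Sftpc* (chr14:70520942-70524081, minus strand) had 60123, 43468 and 42700 CPM in AT2 CTRL and 42839, 43673 and 45465 CPM in AT2 CAB replicates 1, 2 and 3. A single library, AT2 CTRL replicate 1, was high, and the other 5 lay between 42700 and 45465 CPM. The log2 fold change of -0.15 (95% interval -0.65 to 0.36, adjusted p = 0.858 in edgeR's test) was 0.024 without that library.

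The genes of proteases that act on these precursors had log2 fold changes of opposite sign, and neither passed the test. *Napsa* encodes napsin A, an aspartic protease that cleaves pro-SP-B, and had 2982, 2276 and 2086 CPM in AT2 CTRL and 2148, 1891 and 2026 CPM in AT2 CAB replicates 1, 2 and 3. The highest value was again in AT2 CTRL replicate 1 and the groups overlapped, with a log2 fold change of -0.28 (95% interval -0.68 to 0.12, adjusted p = 0.647 in edgeR's test) that was -0.12 without that library. *Ctsh*, for the cysteine protease cathepsin H, had 1353, 811 and 662 CPM in AT2 CTRL and 819, 1005 and 1736 CPM in AT2 CAB replicates 1, 2 and 3. The highest value of each group was in its library with reads on Y-linked genes, and the groups overlapped. The log2 fold change of 0.33 (95% interval -0.44 to 1.11, adjusted p = 0.778 in edgeR's test) was -0.00084 without AT2 CAB replicate 3.

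The lamellar body genes *Lamp3* and *Abca3* differed in how far their groups lay apart. *Lamp3* encodes a glycoprotein of the lamellar body membrane and had 2875, 3613 and 3566 CPM in AT2 CTRL and 2798, 2389 and 1788 CPM in AT2 CAB replicates 1, 2 and 3. The groups did not overlap, though AT2 CTRL replicate 1 and AT2 CAB replicate 1 lay close together. In TPM they did overlap, at 1683 in AT2 CTRL replicate 1 and 1916 in AT2 CAB replicate 1. The AT2 CTRL mean of 3351 ± 413 CPM was 1.44 times the AT2 CAB mean of 2325 ± 508 CPM, a log2 fold change of -0.53 with a standard error of 0.20 and a 95% interval of -0.99 to -0.066 (adjusted p = 0.461 in edgeR's test). It was -0.33 without AT2 CAB replicate 3, and *Lamp3* did not reach an unadjusted p under 0.05 there, with any of the other 3 libraries named above left out, with library size only or with a replicate block. *Abca3*, for the transporter that moves phospholipid into the lamellar body, had 2917, 4566 and 4497 CPM in AT2 CTRL and 4160, 3563 and 2713 CPM in AT2 CAB replicates 1, 2 and 3. The lowest value of each group was in its library with reads on Y-linked genes and the groups overlapped. The log2 fold change was -0.20, with a 95% interval of -0.74 to 0.34 (adjusted p = 0.816 in edgeR's test), and -0.015 without AT2 CAB replicate 3. Exons of *Abca3* overlap those of *D330041H03Rik*, and reads in the overlap were left out of its counts.

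*Slc34a2* and *Lpcat1* supply phosphate transport and lipid synthesis. *Slc34a2* encodes the apical sodium-phosphate cotransporter of AT2 cells and had 13596, 15487 and 15766 CPM in AT2 CTRL and 13428, 12370 and 9960 CPM in AT2 CAB replicates 1, 2 and 3. The groups did not overlap, by the margin between 13428 and 13596 CPM, and the log2 fold change was -0.33 (95% interval -0.76 to 0.11, adjusted p = 0.621 in edgeR's test), or -0.18 without AT2 CAB replicate 3. In TPM the groups of *Slc34a2* overlapped, at 6373 in AT2 CTRL replicate 1 and 7367 in AT2 CAB replicate 1. *Lpcat1*, for an acyltransferase that makes the disaturated phosphatidylcholine of surfactant, had 1127, 1728 and 1739 CPM in AT2 CTRL and 1594, 1347 and 874 CPM in AT2 CAB replicates 1, 2 and 3. Its groups overlapped, with the lowest value of each group again in the library with reads on Y-linked genes (log2 fold change -0.27, 95% interval -0.86 to 0.32, adjusted p = 0.761 in edgeR's test). Without AT2 CAB replicate 3 the value for *Lpcat1* was -0.025.

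**Figure D2:**
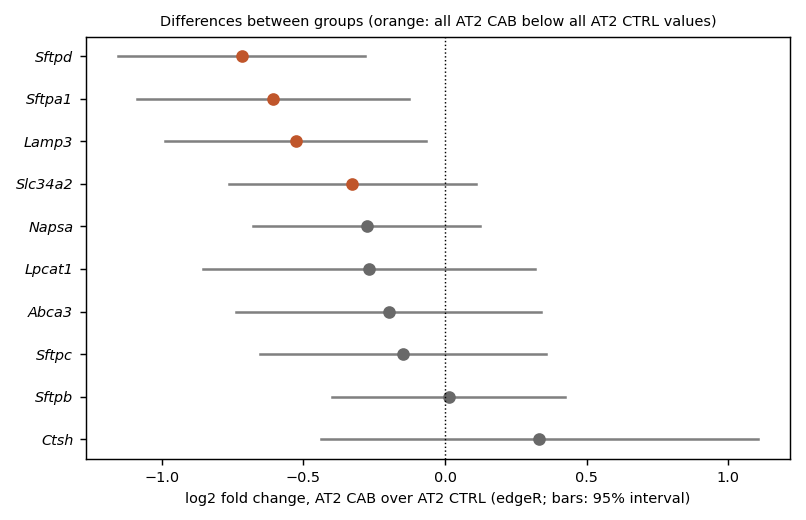
Log2 fold change of each gene, AT2 CAB over AT2 CTRL, from edgeR, with the 95% interval as a line and 0 as a dotted line. Orange points mark the 4 genes whose groups do not overlap in TMM-scaled CPM, and the intervals of *Sftpd*, *Sftpa1* and *Lamp3* lie below 0 before adjustment for the number of genes tested.

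Within a library, ratios of read counts between 2 of the genes are free of the scaling between libraries (pairs chosen after their values were seen, with no test). *Sftpa1* over *Sftpb* was 0.772, 0.827 and 0.846 in AT2 CTRL and 0.614, 0.566 and 0.409 in AT2 CAB replicates 1, 2 and 3. *Sftpd* over *Sftpb* was 0.174, 0.161 and 0.141 in AT2 CTRL and 0.108, 0.102 and 0.0779 in AT2 CAB replicates 1, 2 and 3. Both collectins were thus lower relative to *Sftpb* in every AT2 CAB library, while *Sftpa1* over *Sftpd* overlapped, at 4.42 to 6.01 in AT2 CTRL and 5.26 to 5.69 in AT2 CAB libraries. Relative to *Sftpc*, *Sftpa1* overlapped, at 0.315 to 0.466 in AT2 CTRL and 0.223 to 0.367 in AT2 CAB libraries. *Sftpd* over *Sftpc* did not, at 0.0713 to 0.0905 in AT2 CTRL and 0.0424 to 0.0644 in AT2 CAB libraries. *Lamp3* over *Abca3* was 0.986, 0.791 and 0.793 in AT2 CTRL and 0.673, 0.671 and 0.659 in AT2 CAB replicates 1, 2 and 3, a ratio that did not overlap between the groups although *Abca3* did. *Sftpb* over *Sftpc* overlapped, at 0.409 to 0.564 in AT2 CTRL and 0.513 to 0.598 in AT2 CAB libraries.

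**Figure D3:**
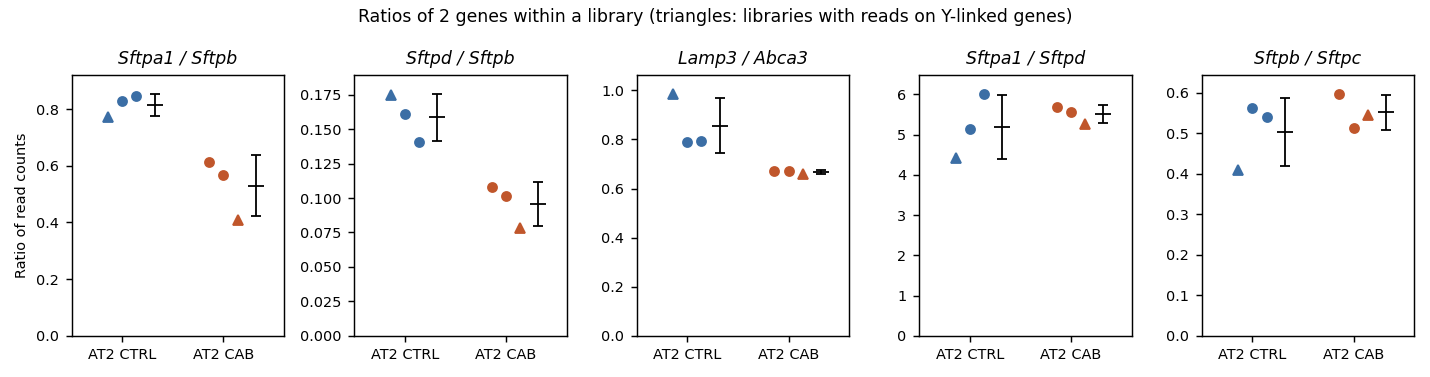
Ratios of raw read counts of 2 genes within each library, with group means and SDs beside the points (triangles mark the libraries with reads on Y-linked genes). *Sftpa1* and *Sftpd* over *Sftpb*, and *Lamp3* over *Abca3*, have no overlap between AT2 CTRL and AT2 CAB, while *Sftpa1* over *Sftpd* and *Sftpb* over *Sftpc* do overlap.

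The genes also varied among themselves from library to library. AT2 CAB replicate 3 held the lowest value of 6 of the 10 genes (*Sftpa1*, *Sftpd*, *Abca3*, *Lamp3*, *Slc34a2* and *Lpcat1*) and the highest of *Ctsh*, and AT2 CTRL replicate 1 held the highest of *Sftpc*, *Sftpd* and *Napsa*. On the log2 scale the 2 libraries with reads on Y-linked genes averaged 0.91 above the other 4 for *Ctsh* and 0.28 above for *Sftpc*, and differed from them by -0.68 for *Lpcat1*, -0.57 for *Abca3* and -0.43 for *Lamp3*, while *Sftpb* (0.048) and *Sftpd* (-0.059) had means near 0. For *Sftpd* that mean joins opposite deviations, since AT2 CTRL replicate 1 was the highest (0.54 above the gene's mean) and AT2 CAB replicate 3 the lowest (-0.62) of the 6 libraries. AT2 CAB replicate 3 also had the highest *Id1* (411 CPM, against 124 and 177 in AT2 CAB replicates 1 and 2) and *Id3* (545 CPM, against 179 and 247), and the part of BMP target level, of Y-linked reads or of any other property of this library in the values of the 10 genes was not tested. With the level of Y-linked reads as a covariate in edgeR, 5 of the 10 were lower at an unadjusted p under 0.05, *Slc34a2* and *Lpcat1* joining the 3 above, and *Ctsh* was higher, where 10.7% and 8.03% of all genes were. Their lowest adjusted p in that fit was 0.0563, for *Lamp3*. In the fit of the 4 libraries without such reads, *Sftpa1*, *Sftpd* and *Lamp3* were lower and *Ctsh* was higher at that threshold, where 7.28% and 6.26% of all genes were.

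**Figure D4:**
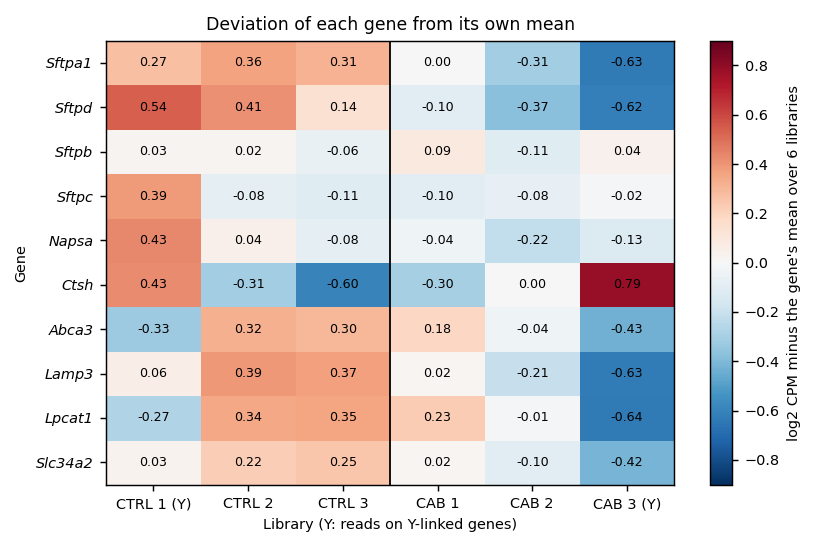
Each gene's log2 CPM minus its mean over the 6 libraries, by library (CTRL for AT2 CTRL, CAB for AT2 CAB, Y for libraries with reads on Y-linked genes), red for above and blue for below. *Sftpa1* and *Sftpd* are above their mean in all AT2 CTRL libraries and at or below it in all AT2 CAB libraries, *Sftpb* is near 0 throughout, and *Ctsh* runs opposite to *Abca3* and *Lpcat1*.

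Genes that act upstream of, or beside, these 10 gave no call in either direction in edgeR's test at an adjusted p under 0.05. Their counts at an unadjusted p under 0.05 stand beside 5.05% of all tested genes lower and 4.62% higher, and several, such as 1 of 18 and 1 of 12, are near these shares. Of 12 regulators of surfactant genes, 2 were lower at an unadjusted p under 0.05, *Foxa2* (log2 fold change -0.28) and *Etv5* (-0.54), and 1 was higher, *Nkx2-1* (0.33), the homeobox factor that drives surfactant gene expression. Of 14 genes of lamellar body biogenesis and trafficking, 3 were lower and 0 higher: *Rab38* (-0.50), a small GTPase of lysosome-related organelles, *Dtnbp1* (-0.45), a subunit of the sorting complex BLOC-1, and the phospholipid flippase gene *Atp8a1* (-0.61). Of 14 genes of surfactant lipid synthesis and transport, 2 were lower and 2 higher, among them *Cept1* (-0.45), which completes phosphatidylcholine, and the sterol exporters *Abca1* (0.75) and *Abcg1* (0.76). Of 18 genes of secretion, uptake and lysosomal turnover, 1 was lower, the protease gene *Ctsc* (-0.56), and 0 higher. The median log2 fold changes of these lists were -0.17, -0.24, -0.086 and -0.089 in that order, beside -0.0096 over all tested genes.

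Other AT2 markers, none of which is a surfactant gene of the list above, summed to 59756 to 62876 CPM in AT2 CTRL and 27361 to 45252 CPM in AT2 CAB libraries, and 8 of 16 were lower and 1 higher at an unadjusted p under 0.05, with 0 called (beside 5.05% and 4.62% of all tested genes, as for each list of markers that follows). Lysozyme *Lyz2* had a log2 fold change of -1.09, *Bex2* of -0.91 and *Egfl6* of 0.71. The median of the 16 was -0.42, with 12 below 0 and 4 above. AT1 markers label the flat cells of gas exchange. Among 14 of them, 1 was lower and 4 higher at an unadjusted p under 0.05, with 0 called (*Gramd2* 1.37, *Krt7* 0.94, *Aqp5* -0.53). Their sum was 4087 to 4909 CPM in AT2 CTRL and 4585 to 5408 CPM in AT2 CAB libraries. The median log2 fold change of the 14 was 0.36, with 12 above 0 and 2 below. The summed markers of other cells were 727 to 936 and 844 to 1224 CPM for airway cells (1 of 9 tested called higher, *Tppp3*, with *Krt5* at 0 in all 6 libraries), 239 to 537 and 470 to 777 CPM for endothelium, 163 to 215 and 256 to 317 CPM for mesenchyme, and 53.7 to 62.6 and 47.2 to 132 CPM for leukocytes without *Lyz2*, in AT2 CTRL and AT2 CAB libraries. At an unadjusted p under 0.05, 1 of the 9 airway markers was lower (*Cyp2f2*, log2 fold change -0.53, named after its value was seen) and 1 higher, and their median was -0.0032. None of the endothelial, mesenchymal and leukocyte markers was called, with 5 of 8, 3 of 8 and 0 of 11 higher at an unadjusted p under 0.05. Of the endothelial, mesenchymal and leukocyte markers (without *Lyz2*), 8 of 8, 8 of 8 and 10 of 11 had log2 fold changes above 0. Their medians were 0.66, 0.50 and 0.78 in that order. Sums of a few markers do not measure the share of other cells in a library. The part of these other cells in the differences was not tested.

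Among genes of at least 50 CPM, those whose profile over the 6 libraries was most like the mean log2 CPM of the 10 genes included *Nap1l1*, *Rnase4*, *Serp1* and *Snx25*, with a likeness (Pearson's r, as a description over 6 libraries) of 0.990 to 0.995. The mean of the 10 genes was itself lower in every AT2 CAB library, so genes chosen for this likeness were bound to be lower there. *Rnase4* had a log2 fold change of -0.67 and *Snx25* of -0.49, with adjusted p-values of 0.273 and 0.311 in edgeR's test.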

How the data were processed

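Poly(A) RNA of 3 AT2 CTRL and 3 AT2 CAB libraries was sequenced as read pairs. Per the study's methods, tails and adaptors were trimmed with PRINSEQ and Trimmomatic, reads were aligned to mm10 with Hisat2, duplicates were removed with SAMtools and fragments were counted with featureCounts (1.5.3 per the file header). The authors deposited raw counts per gene for 24421 genes, without normalization. The header holds no option for strand or for pairs, and even numbers made up 56.9% to 60.8% of the counts from 1 to 20, so reads, not the fragments that the methods name, were taken to be the unit counted. Removal of duplicates can lower counts of short, abundant genes. *Sftpc* had 1164 to 1740 reads per exon base, *Sftpb* 350 to 487, *Sftpa1* 112 to 185 and *Sftpd* 44.4 to 72.1. The effect of this removal, also on the narrow band of *Sftpb* and on ratios over it, was not tested.

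Groups came from the labels. Within each group the 3 libraries differed from each other in age or in Y-linked reads, so they were not repeats of one animal's RNA, but the labels do not say whether each was 1 mouse or a pool. Counts were filtered (filterByExpr, minimum count of 10), TMM-scaled and tested on the whole table with edgeR 4.0.16 in R 4.3.3 (quasi-likelihood test, two-sided, Benjamini-Hochberg adjustment, threshold of 0.05). DESeq2 1.42.0, which the study's methods name, and limma-voom (limma 3.58.1) were alternatives, beside other scalings, no filter, a replicate block, covariates for age and Y-linked reads, the 4 libraries without such reads and each library left out. The pipeline was tested on simulated counts. TPM was computed from counts and exon lengths of the deposited table.

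The 10 genes, the other lists and the tests were chosen with earlier results of these data known. Named beside the 10 genes were called list members, else up to 3 of each list with the smallest unadjusted p under 0.05, the BMP targets and the 5 genes of most similar profile, of which 1 is not reported here. Gene coordinates (mm10) were read from the count table.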

Additional observations from a re-analysis of the deposited data

How the results depend on the processing

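Over 17 alternatives the 10 genes gave 170 log2 fold changes, of which 163 kept their direction and side of the threshold, 6 reversed and 1 (*Sftpd* in DESeq2) passed it. The reversals were all near 0: *Sftpb* was -0.0032 with no filter and -0.019 to 0.081 with libraries left out in turn, *Sftpc* was 0.039 in the 4 libraries without Y-linked reads and -0.24 to 0.024 with libraries left out, and *Ctsh* was -0.00084 to 0.68. The cause was not tested. The number of the 10 genes called was 1 in DESeq2. The number lower at an unadjusted p under 0.05, 3, was 5 with Y-linked reads as a covariate and 1 to 3 with libraries left out. It was 1, *Sftpd* alone, without AT2 CTRL replicate 2, AT2 CTRL replicate 3, AT2 CAB replicate 2 or AT2 CAB replicate 3. The number higher, 0, was 1 (*Ctsh*) with that covariate and in the 4 libraries. Genes called lower among all genes, 2, were 1 with upper-quartile scaling, library size only, limma-voom or age as a covariate, 5 with no filter, 83 in DESeq2, 211 with the Y-linked covariate, 40 in the 4 libraries and 0 to 4 with libraries left out. Genes called higher, 40, were 62 with no filter, 200 in DESeq2, 213 with the Y-linked covariate, 73 in the 4 libraries and 6 to 59 with libraries left out. Samples of one replicate number did not deviate together (r = -0.24, 0.20 and -0.53 between groups), so the numbers were not taken as pairs, and with a replicate block 5 genes in all were called lower and 2 of the 10 genes were lower at an unadjusted p under 0.05. The median of the 10 genes was -0.39 to -0.15 with libraries left out. With library size only, the median of all genes moved to 0.12, and that of the 10 genes stayed 0.27 below it.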
